A study of Mus musculus with 16 samples.

Results

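The genes described here encode potassium channel subunits of 15 subfamilies and were followed in mouse primary cortical neurons after knockdown of Nup153, a nucleoporin of the nuclear basket. Members were the gene symbols of the form Kcn, letters and a number that occur in both deposited count tables. The Kv3 genes (Kcnc) and the silent Kv modifier genes (Kcnf, Kcng, Kcns and Kcnv), 14 symbols, were left out. Of the 68 symbols that remained, 64 had at least 10 counts in at least 2 libraries and are the members, among 26371 symbols shared by the tables. Kcne3, Kcnj8, Kcnk15 and Kcnn4 were under that minimum and are not described further. The members comprise 7 Kcna genes, 3 Kcnab, 2 Kcnb, 3 Kcnd, 1 Kcne, 8 Kcnh, 4 Kcnip, 12 Kcnj, 10 Kcnk, 1 Kcnma, 2 Kcnmb, 3 Kcnn, 5 Kcnq, 2 Kcnt and 1 Kcnu.

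Potassium channels let potassium leave or enter the cell along its gradient and so set the resting potential, the threshold and the repolarisation of neurons. Voltage-gated pores (Kcna, Kcnb, Kcnd, Kcnh, Kcnq) open on depolarisation, calcium- or sodium-activated pores (Kcnma, Kcnn, Kcnt) open with internal ions, inward rectifiers (Kcnj) pass current mainly near and below rest, and tandem-pore leak channels (Kcnk) hold the resting conductance. The Kcnab, Kcnip, Kcnmb and Kcne proteins are accessory subunits that change the gating or surface number of the pores they bind.

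The series measured poly(A) RNA of cultured cortical neurons that had received an adeno-associated virus (AAV) with a short hairpin, and its design text asks how widely this nucleoporin shapes gene expression in mature neurons. Cells came from C57BL/6 embryos at embryonic day 17.5 to 19.5, with the cortices of 1 litter pooled as a replicate, and all carried AAV from day 8 to day 13 in vitro. Basal cultures had the control hairpin shControl (4 libraries), shNup153-1 (2 libraries used of 3 labelled samples) or shNup153-2 (2 libraries used of 3 labelled samples). Silenced cultures had shControl (3 libraries) or shNup153-2 (3 libraries), and also received tetrodotoxin, a sodium channel blocker, at 1 to 2 µM for 24 hours from day 12 and D-AP5, an NMDA receptor blocker, at 100 µM for the last 6 hours. The labels say that only cultures with sufficient knockdown were sequenced. The free-text descriptions of the shNup153 samples name the control virus, so groups follow the sample titles.

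Total counts per library ran from 26863535 to 56299817. Levels are given as CPM, a gene's counts relative to its library's total after TMM scaling, and a gene was called higher or lower where edgeR's quasi-likelihood test gave a Benjamini-Hochberg adjusted p below 0.05 over all genes tested. In the basal table the columns of shNup153-1 stand in register with the other columns only over the upper lines, so Kcnb2, Kcnip3 and Kcnj11 have no shNup153-1 value and 61 members do. Nup153 itself checked the labels. Its CPM were 94.5, 52.9, 77.8 and 56.8 in basal shControl, 17.1 and 28.0 in shNup153-1 cultures, 13.5 and 11.6 in shNup153-2 cultures, 64.2, 52.1 and 61.8 in silenced shControl and 10.6, 13.4 and 9.38 in silenced shNup153-2, with no overlap between knockdown and control libraries. The 6 neuronal marker genes summed to 3483 to 6335 CPM in all 14 libraries. Astrocyte markers were present in every library and varied widely within groups, from 192 to 1585 CPM in basal and from 86.7 to 674 CPM in silenced libraries, while the 3 microglial genes summed reached at most 1.57 CPM. In such bulk cultures, fewer cells of a type and less RNA per cell cannot be told apart.

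In basal shControl cultures, per kilobase of exon (GENCODE M21 gene models), the highest level was that of Kcnj4, a strong inward rectifier, at 47.3 CPM per kb. Other high levels were those of the glial inward rectifier Kcnj10 (25.97), the G-protein-gated rectifier subunit Kcnj3 (21.6), the A-type pore Kcnd2 (19.1), its accessory subunit Kcnip2 (19.1) and the leak channel Kcnk1 (19.0), all in CPM per kb. Members that led other subfamilies on the same scale included Kcnmb4 (13.5), Kcnab2 (12.6), Kcnma1 (9.30), Kcnt1 (8.998), Kcna6 (8.51), Kcnh7 (7.27), Kcnn1 (3.80), Kcnu1 (1.17) and Kcne4 (0.0634). Without the division by length, high CPM were those of the large-conductance calcium-activated pore Kcnma1 at 158 ± 42.4 (SD, n = 4) and the acid-sensitive leak channel Kcnk9 at 152 ± 19.4. Replicate litters differed. Among the 55 members at 1 CPM or more, the highest of the 4 control libraries exceeded the lowest by 1.14 to 7.39 times, with a median of 1.71. The spread was widest for the Kcnh pore Kcnh5 at 12.2, 2.62, 11.6 and 1.65 CPM, for Kcnh6 at 2.25, 0.323, 2.16 and 0.963 CPM and for the Kv1 pore Kcna3 at 25.6, 3.73, 14.4 and 5.06 CPM. Among the members named here it was narrow for Kcnn2, a small-conductance calcium-activated pore, at 18.2, 21.3, 18.7 and 20.6 CPM. Kcnh5, Kcnh6 and Kcna3 were each higher in replicates 1 and 3 than in replicates 2 and 4. The astrocyte marker sums had that order too, at 1015, 192, 878 and 501 CPM in replicates 1 to 4. Kcnh3 differed, highest in replicate 2 (47.6 CPM) and lowest in replicate 3 (15.5 CPM). The part of glia in this spread was not tested.

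**Figure D1:**
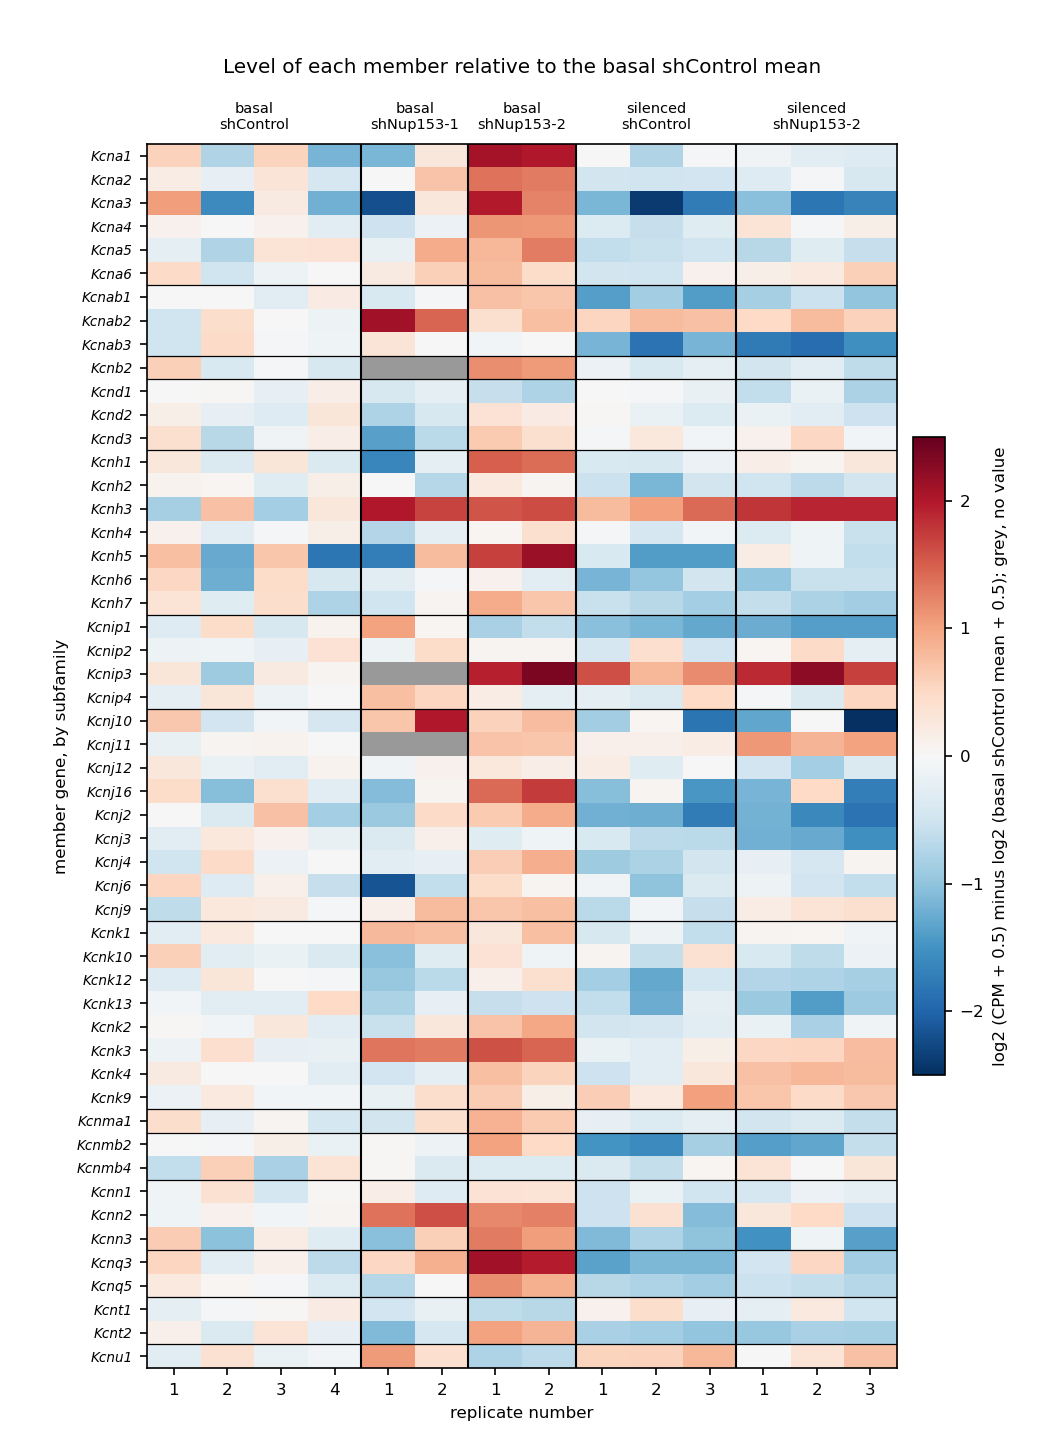
Level of each member with a basal shControl mean of at least 1 CPM in every library, as log2 of CPM plus 0.5 minus log2 of the basal shControl mean plus 0.5 (colour), with libraries in columns by group and replicate number and genes in rows by subfamily; grey cells have no value, and a few members are not shown. The basal shNup153-2 columns are mostly red, with Kcna1, Kcnq3 and Kcnip3 among the darkest cells. In the silenced columns blue cells outnumber red ones, and Kcnip3 and Kcnh3 stay red.

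Summed over the 61 members with a value in all libraries, the members made up 2970.0, 2624, 2679 and 2437 CPM in the 4 basal shControl libraries, 2713 and 3699 CPM in the shNup153-1 libraries and 4638 and 4316 CPM in the shNup153-2 libraries. Silenced cultures held 2450.0, 2401 and 2450.0 CPM with shControl and 2930.0, 2898 and 2618 CPM with shNup153-2. Both basal shNup153-2 libraries stood above all others, and shNup153-1 replicate 2 came next.

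With the hairpin shNup153-1 at basal state, the members called higher were Kcnab2 (accessory), Kcnk1 and Kcnk3 (leak), Kcnn2 (calcium-activated), Kcnh3 (voltage-gated) and Kcnj10 (inward rectifier). Most voltage-gated pores gave no call. Of the 57 members tested, 6 (10.5%) were called higher, against 6.52% of the 14529 genes tested, and 2 (3.51%) were called lower, against 7.05% of all genes. The median log2 fold change of the members was -0.12, beside -0.02 over all genes tested. The 3 Kcnd pores, which carry the fast A-type current, had log2 fold changes of -1.02 to -0.36, and neither Kcnt gene was called.

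Among ion-activated pores, Kcnn2 (chromosome 18) encodes a small-conductance calcium-activated channel of the afterhyperpolarisation. Its level was 18.2, 21.3, 18.7 and 20.6 CPM in shControl and 51.5 and 61.6 CPM with shNup153-1 (edgeR log2 fold change 1.497, SE 0.15, adjusted p = 0.00186). Both knockdown libraries lay well above the narrow range of the controls. Kcnab2 (chr4:152390742-152477871, minus strand) encodes the beta subunit that binds Kv1 pores in axons. It stood at 49.3, 95.6, 70.9 and 64.5 CPM in shControl and 301 and 193 CPM with shNup153-1 (edgeR log2 fold change 1.79, SE 0.28, adjusted p = 0.00599), and the groups did not overlap. Other accessory genes with a value, among them Kcnab1, Kcnab3 and the Kv4 partners Kcnip1, Kcnip2 and Kcnip4, were not called by edgeR. DESeq2 called Kcnip4 higher (log2 fold change 0.65, adjusted p = 0.0362).

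Leak channels moved in both directions. Kcnk3 (chr5:30588170-30625271, plus strand), an acid-sensitive leak channel, was at 8.61, 12.9, 8.18 and 8.29 CPM in shControl and 24.9 and 24.1 CPM with shNup153-1 (edgeR log2 fold change 1.34, SE 0.21, adjusted p = 0.00664). Kcnk1 (chr8:125995170-126030685, plus strand), a weak leak channel also found in glia, was at 34.6, 50.1, 42.9 and 42.2 CPM and 74.8 and 71.6 CPM (edgeR log2 fold change 0.76, SE 0.20, adjusted p = 0.0372). Neither gene's groups overlapped. Kcnk1 lost its call when only the groups compared entered the fit, and without shControl replicate 1, 3 or 4. Kcnk3 kept its call in those fits, and both lost it with a replicate block. Kcnk6 and the muscle Kv1 gene Kcna7 were called lower from few counts: 83 counts of Kcnk6 in the 4 control libraries against 3 in the 2 knockdown libraries, a depth-scaled control to knockdown ratio of 10.9 (95% counting interval 3.62 to 54.1), and 57 against 2 for Kcna7, a ratio of 11.3 (2.98 to 95.3).

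Kcnh3 (chr15:99224861-99242817, plus strand), a voltage-gated pore of the forebrain that opens near rest, was at 15.7, 47.6, 15.5 and 34.4 CPM in shControl and 116 and 92.5 CPM with shNup153-1 (edgeR log2 fold change 1.86, SE 0.42, adjusted p = 0.0232). The control libraries spread over 3.08 times, yet both knockdown libraries were above all of them. Kcnj10 (chr1:172341210-172374085, plus strand), the inward rectifier through which astrocytes and oligodendrocytes clear potassium, was at 223, 101, 134 and 104 CPM and 228 and 563 CPM (edgeR log2 fold change 1.47, SE 0.40, adjusted p = 0.0455). The lower knockdown library barely exceeded the highest control, and without shNup153-1 replicate 2 the log2 fold change was 0.66 and not called. The 7 astrocyte markers summed to 1015, 192, 878 and 501 CPM in the controls and 604 and 1585 CPM with shNup153-1. The 9 oligodendrocyte-lineage markers with a value summed to 214, 114, 285 and 210.2 CPM and 783 and 784 CPM, and 6 of the 9 tested were called higher. The 6 interneuron markers summed to 797, 1271, 680.4 and 1226 CPM and 2166 and 1394 CPM, with 1 of 6 called higher. The part of these cell types in the members' changes was not tested. Leaving out a library ended several of the 8 calls: 2 remained without shNup153-1 replicate 1, 4 without shControl replicate 4 or without either shNup153-2 library, and 5 without shControl replicate 3.

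With the hairpin shNup153-2 at basal state, members rose across voltage-gated, leak, calcium-activated and inwardly rectifying channels, and none was called lower. Of 61 members tested, 14 (23%) were called higher, against 5.91% of the 19682 genes tested, and 0 lower, against 3.64% of all genes. At an unadjusted p below 0.05, 37 members (60.7%) passed, beside 28.9% of all genes. DESeq2 called 22 members higher and 2 lower, with 18.4% of all genes called, and limma-voom called 16 higher and 1 lower, with 10.2% of all genes called. The median log2 fold change was 0.62, beside -0.03 over all genes tested, and 47 members (77%) had a positive value, beside 48.3% of all genes. By subfamily, the calls included 3 of 7 Kcna genes, 1 of 8 Kcnh, 1 of 4 Kcnip, 2 of 12 Kcnj, 2 of 9 tested Kcnk, 1 of 3 Kcnn and 1 of 2 Kcnt genes. The 6 neuronal markers summed to 5161, 5093, 3483 and 4515 CPM in shControl and 6335 and 5449 CPM with shNup153-2, above every control, and 2 of 6 were called higher by edgeR, Syt1 (log2 fold change 1.40) and Slc17a7 (0.87). The other neuronal markers gave no call, with log2 fold changes of -1.84 for Tubb3, 0.17 for Map2, 0.12 for Snap25 and 0.28 for Rbfox3. The part of neuronal RNA content in the members' values was not tested.

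**Figure D2:**
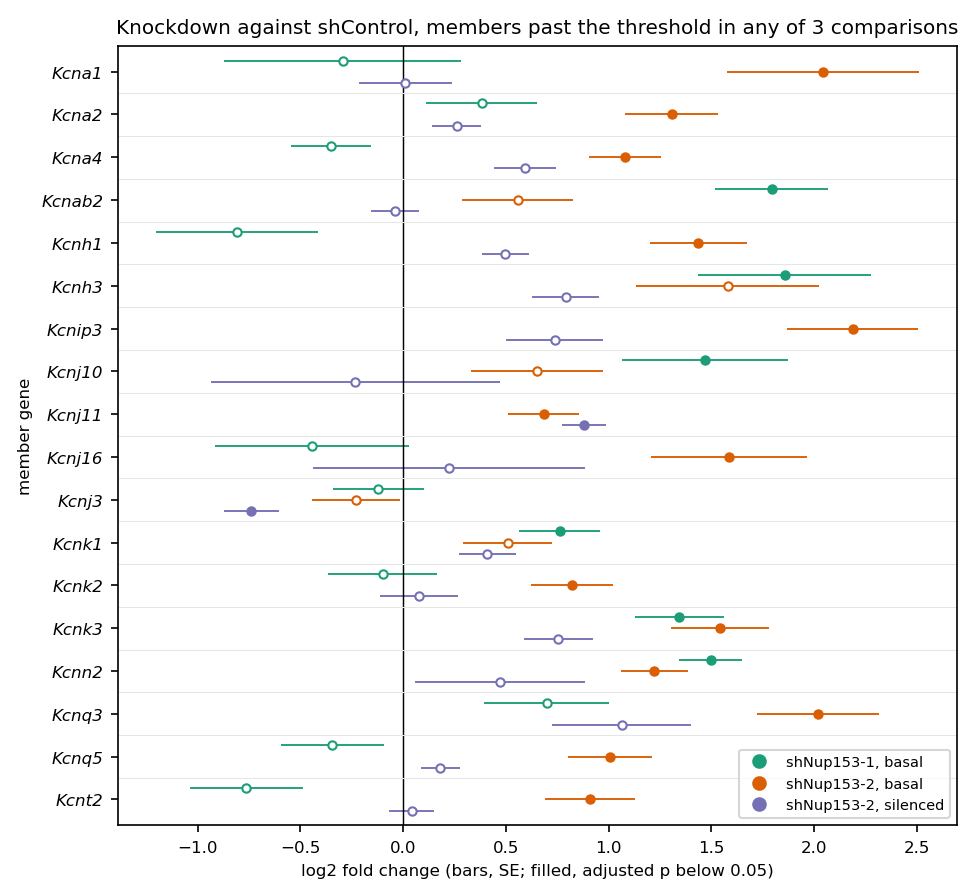
Log2 fold change of shNup153 against shControl (horizontal axis) for each member called in any of 3 comparisons and reaching a mean of 1 CPM in some group (vertical axis), with bars of 1 SE and filled points where the adjusted p is below 0.05. Kcnk3 and Kcnn2 are filled and to the right of 0 for both hairpins at basal state, while in silenced cultures the filled points are Kcnj11 on the right and Kcnj3 on the left.

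Among voltage-gated pores, Kcnq3 (chr15:65986387-66286642, minus strand) encodes a subunit of the M-current, which holds repetitive firing in check. It stood at 115, 65.7, 87.5 and 50.6 CPM in shControl and 345 and 314 CPM with shNup153-2 (edgeR log2 fold change 2.02, SE 0.30, adjusted p = 0.00848), far apart. Kcna4 (chr2:107290639-107298502, plus strand), the Kv1 pore of A-type current, was at 20.1, 18.7, 20.1 and 15.4 CPM and 40.2 and 40.0 CPM (edgeR log2 fold change 1.08, SE 0.17, adjusted p = 0.0116). For both genes the 2 knockdown libraries lay above every control.

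The axonal Kv1 pores followed the same order. Kcna1 was at 24.7, 9.61, 24.3 and 7.05 CPM in shControl and 71.2 and 67.0 CPM with shNup153-2, a log2 fold change of 2.04, and Kcna2 at 93.3, 71.0, 101 and 60.5 and 209 and 203 CPM, a log2 fold change of 1.31. Further calls among voltage-gated pores were Kcnh1, an ether-à-go-go channel of presynaptic terminals (log2 fold change 1.44), and Kcnq5, a further M-current subunit (1.01). Several large positive values gave no call with edgeR: Kcnh5 had a log2 fold change of 2.00, Kcnh3 of 1.58 and Kcna3 of 1.67, with SEs of 0.70, 0.45 and 0.66. DESeq2 called Kcnh5 (adjusted p = 0.0256) and Kcnh3 (adjusted p = 0.0087) higher. The highest control library exceeded the lowest by 7.39 times for Kcnh5, 3.08 times for Kcnh3 and 6.87 times for Kcna3.

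Kcnip3 (chr2:127456498-127522094, minus strand) encodes a calcium-binding protein that assists Kv4 pores and also acts as a transcriptional repressor. It was at 11.7, 4.84, 11.03 and 9.75 CPM in shControl and 37.3 and 49.6 CPM with shNup153-2 (edgeR log2 fold change 2.19, SE 0.32, adjusted p = 0.00832), the largest fold change among the 14 calls. Its fellow Kv4 partners differed: Kcnip1 had a log2 fold change of -0.75, Kcnip2 of 0.03 and Kcnip4 of -0.04, none called by edgeR, which also called no Kcnd, Kcnab or Kcnmb gene. DESeq2 called the A-type pore Kcnd1 lower (log2 fold change -0.72, adjusted p = 0.014) and the accessory genes Kcnab1 (0.69, adjusted p = 0.0148) and Kcnmb2 (0.79, adjusted p = 0.0194) higher.

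Among ion-activated pores, Kcnn2 was at 46.2 and 47.9 CPM with shNup153-2, again above the controls listed for the first hairpin (edgeR log2 fold change 1.22, SE 0.17, adjusted p = 0.00644). The sodium-activated pore Kcnt2 also rose (log2 fold change 0.91), whereas its relative Kcnt1 had a log2 fold change of -0.71 with no call by edgeR and was called lower by DESeq2 (adjusted p = 0.00852). The large-conductance pore Kcnma1 was at 214, 137, 165 and 116 CPM and 290.1 and 249 CPM and was not called. The leak channel Kcnk3 was at 29.6 and 26.9 CPM (edgeR log2 fold change 1.54, SE 0.24, adjusted p = 0.00994), above all its controls. Kcnk2, a leak channel opened by stretch and lipids, rose by a smaller amount (log2 fold change 0.82). Among inward rectifiers, Kcnj11, the pore of the ATP-sensitive channel, had a log2 fold change of 0.68 and Kcnj16, which joins Kcnj10 in glia, of 1.59. Kcnj16 was at 24.3, 8.10, 23.1 and 14.4 CPM in shControl and 47.6 and 59.7 CPM with shNup153-2. The astrocyte markers summed to 1015, 192, 878 and 501 CPM in the same controls, which ranked as they did for Kcnj16. With shNup153-2 those markers summed to 829.9 and 1128 CPM, the first within the control range and the second above it. The part of glia in the change of Kcnj16 was not tested.

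The calls with shNup153-2 rest on 2 knockdown libraries. Without either of them 0 members were called, with the lone library assumed to vary like the others, and without shControl replicate 4 there were 8, although the median log2 fold change stayed between 0.57 and 0.66 in all 6 fits that leave out a library. With the trend on gene length removed and all libraries kept, the median was 0.48. That fit called 15 members higher and 2 lower, with 11.9% of all genes called. With a replicate block as well, the median was 0.44, and 10 members were called higher, with 5.37% of all genes called. In that fit shControl replicates 3 and 4 have no knockdown library of the same number, so the effect rests on replicates 1 and 2. The basal numbers do not pair the libraries (r = 0.263 and -0.016), so the block is a weak check. Both basal comparisons use the same 4 shControl libraries, so the values of Kcnn2 and Kcnk3, called higher with each hairpin, are not independent of each other. Reads of antisense genes cannot be told apart where counting ignores strand, and the sources used here give no strand setting. Genes on the opposite strand overlap 39.6% of the exon length of Kcna6, 31.5% of Kcnmb4, 31.1% of Kcnj3, 12.2% of Kcnk2, 8.13% of Kcnn2, 8.01% of Kcnk1, 7.36% of Kcnip4, 5.99% of Kcnma1, 5.76% of Kcnk3, 5.28% of Kcnj15 and 5.13% of Kcnab3, and smaller shares of other members.

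**Figure D3:**
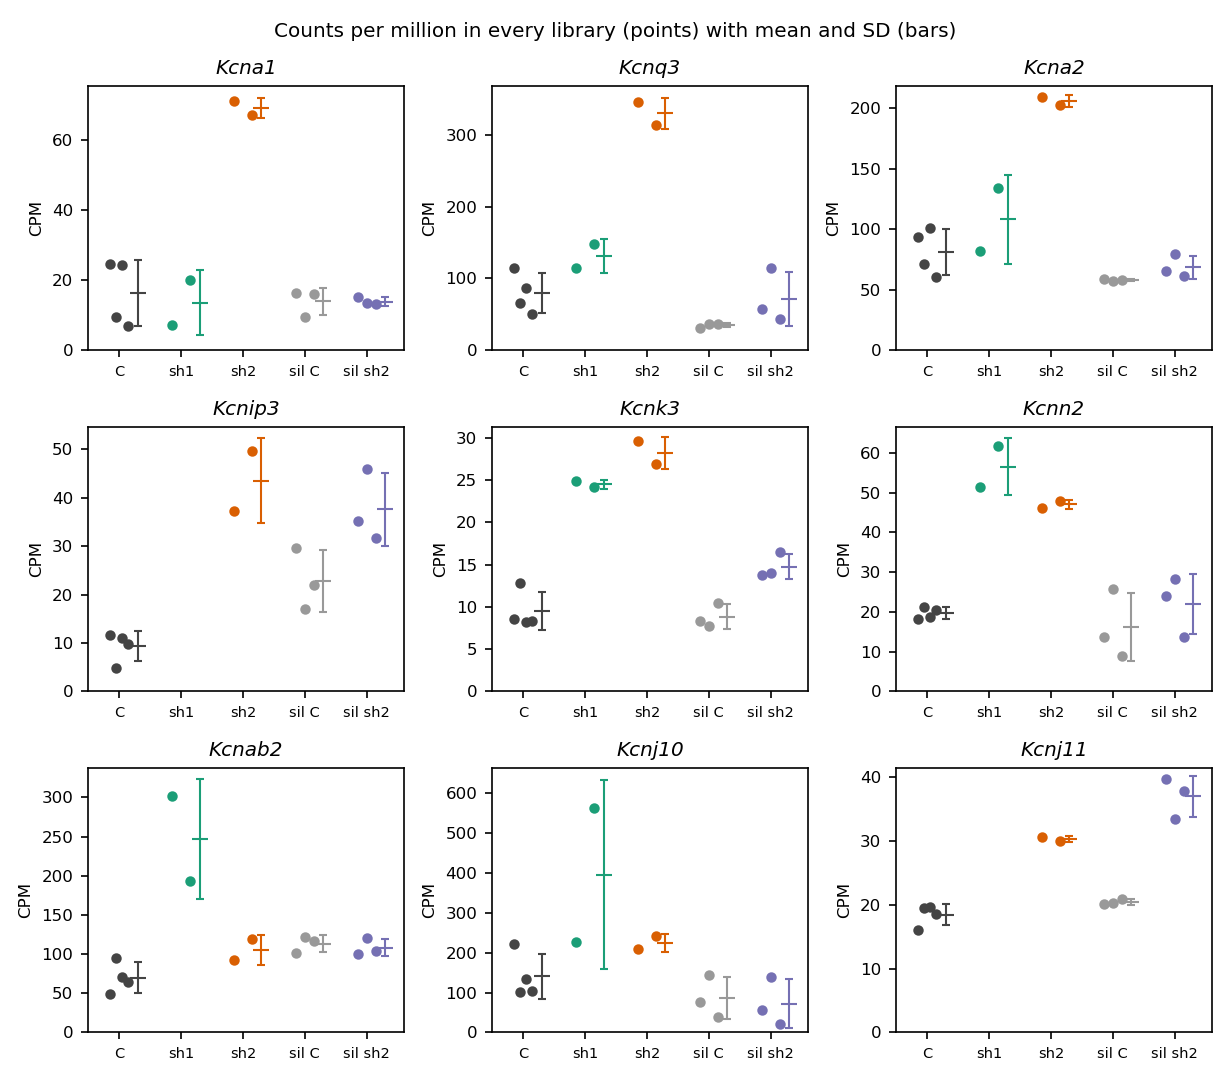
CPM of 9 members in every library (points, vertical axis from 0) with the mean and SD of each group beside them; C, basal shControl; sh1 and sh2, basal shNup153-1 and shNup153-2; sil C and sil sh2, silenced shControl and shNup153-2. Kcna1, Kcnq3 and Kcna2 are higher in basal sh2 than in its silenced counterpart, Kcnj11 is high in sh2 in both states, and Kcnip3 and Kcnj11 have no sh1 value.

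Promoter sequences were searched because several members rose together with shNup153-2. RefSeq promoters (GRCm38.p6) were matched by symbol for 46 members, 8 of them among the 14 that rose, and the 250 bases before each start were scanned on both strands. The cyclic-AMP response element TGACGTCA was in 0 of the 46 members and in 1.77% of 27025 genes. The Egr motif GCGNGGGCG was in 2 members, Kcnk2 and Kcnt2, and in 5.33% of all genes. The AP-1 motif TGANTCA was in 3 members, Kcnip3, Kcnip4 and Kcnk2, and in 7.82% of all genes. The motifs in members that rose are shown with flanks on the gene's strand, 5′ to 3′, with the match in capitals; the Kcnt2 match (chr1:140245681-140245709, plus strand) is the reverse complement of the motif and begins 27 bases before the RefSeq start, the Kcnk2 Egr match (chr1:189343502-189343530, minus strand) 167, the Kcnk2 AP-1 match at another start site (chr1:189344302-189344328, minus strand) 126 and the Kcnip3 match (chr2:127522200-127522226, minus strand) 122.
Kcnt2 Egr: ccaccgccttCGCCCCCGCcttcgtccgg
Kcnk2 Egr: cccatcgcgcGCGGGGGCGtcgtcgtccg
Kcnk2 AP-1: catcctccccTGACTCAgtcatacagt
Kcnip3 AP-1: gctaattggcTGACTCAataaaaaggg

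The difference between the hairpins was tested directly in the fit of the 3 basal groups. Of 57 members, 4 (7.02%) were called higher with shNup153-2 than with shNup153-1, against 2.81% of the 14529 genes tested, and 1 (1.75%) lower, against 1.67%. The 4 are pores: Kcna4 was at 12.8 and 16.8 CPM with shNup153-1 (edgeR log2 difference 1.43, SE 0.22, adjusted p = 0.0157), Kcnh1 (chr1:192190774-192510159, plus strand) at 47.3, 30.2, 48.3 and 30.2 CPM in shControl, against 12.2 and 33.0 for the first hairpin and 111 and 104 for the second (edgeR log2 difference 2.24, SE 0.46, adjusted p = 0.0344). Kcnt2 (chr1:140246158-140612067, plus strand) was at 38.8, 27.3, 44.8 and 30.4, 16.1 and 26.3 and 71.0 and 64.4 CPM in the same order of groups (edgeR log2 difference 1.67, SE 0.32, adjusted p = 0.0286). Kcnq5 (chr1:21398403-21961942, minus strand) was at 106, 92.2, 87.8 and 70.4, 54.3 and 88.4 and 201 and 165 CPM (edgeR log2 difference 1.35, SE 0.29, adjusted p = 0.0401). In each of the 4 both shNup153-2 libraries exceeded every control, and the shNup153-1 libraries lay within or below the control range.

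The reverse difference was that of Kcnu1 (chr8:25849623-25937939, plus strand), a pore best known from sperm. It was at 3.57, 5.88, 3.87 and 4.16 CPM in shControl, against 9.64 and 6.02 for the first hairpin and 2.36 and 2.61 for the second (edgeR log2 difference -1.66, SE 0.36, adjusted p = 0.041). Kcnu1 stood above the controls with one hairpin and below them with the other, though edgeR called neither hairpin alone against shControl. DESeq2 called it higher with shNup153-1 (log2 fold change 0.84, adjusted p = 0.0499). These 5 calls fell to 0 without shNup153-1 replicate 1 or either shNup153-2 library, to 1 without shControl replicate 4 and to 2 without shControl replicate 3, and rose to 11 without shControl replicate 2. Without shNup153-1 replicate 2 the log2 difference of Kcnh1 was 3.14.

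In silenced cultures the same hairpin, shNup153-2, gave 1 member (1.75%) called higher, against 1.61% of the 18965 genes tested, and 1 (1.75%) called lower, against 1.83%, of 57 members. Both shares are close to the background in this edgeR fit, which had no replicate block. The median log2 fold change was 0.16, beside 0.01 over all genes tested. At an unadjusted p below 0.05, 19 members (33.3%) passed, beside 19.7% of all genes. Of those 19, 2 had a negative value (3.51% of members, beside 9.6% of all genes). DESeq2 called 11 members higher and 1 lower, with 10.5% of all genes called. Both calls of the edgeR fit are inward rectifiers. Kcnj11 (chr7:46093953-46100764, minus strand) was at 20.1, 20.3 and 20.9 CPM in silenced shControl and 39.8, 33.5 and 37.8 CPM with shNup153-2 (edgeR log2 fold change 0.88, SE 0.11, adjusted p = 0.0145). At basal state it had been at 16.1, 19.5, 19.6 and 18.6 and 30.6 and 30.0 CPM, so the knockdown libraries exceeded the controls in both states. Kcnj3 (chr2:55435970-55598145, plus strand), the subunit common to neuronal G-protein-gated rectifiers, was at 85.9, 71.9 and 70.4 CPM in silenced shControl and 48.9, 47.0 and 38.7 CPM with shNup153-2 (edgeR log2 fold change -0.74, SE 0.13, adjusted p = 0.0379). At basal state its levels of 93.7, 136, 122 and 99.4 and 91.8 and 105 CPM overlapped.

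In the silenced table, libraries that share a replicate number deviated together. With replicate number as a block, 18 of 57 members were called higher, a larger share than the 11.7% of all genes. Called lower were 3 of 57, a smaller share than the 10.3% of all genes. In that blocked fit Kcnj11 had a log2 fold change of 0.88 (edgeR adjusted p = 0.00116) and Kcnj3 of -0.74 (edgeR adjusted p = 0.00159). Others called higher by the blocked fit included the Kv1 genes Kcna4 (0.59) and Kcna6 (0.63), the accessory genes Kcnab1 (0.47), Kcnip3 (0.75) and Kcnmb4 (0.55), the pores Kcnh1 (0.50), Kcnh3 (0.81) and Kcnh5 (0.99), the M-current gene Kcnq3 (0.94), the rectifiers Kcnj4 (0.55) and Kcnj9 (0.77), the leak channels Kcnk1 (0.42), Kcnk3 (0.76) and Kcnk4 (1.03), and Kcnn2 (0.53), each value a log2 fold change. The others called lower were Kcnj12 (-0.58) and Kcnt1 (-0.25).

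Without the block the count of 2 was 0 when shControl replicate 1 or shNup153-2 replicate 1 or 3 was left out, and 1 without shControl replicate 3 or shNup153-2 replicate 2. Of the neuronal markers 0 of 6 were called by edgeR without the block, and of the astrocyte markers 0 of 7. The neuronal log2 fold changes were 0.74 for Slc17a7, 0.65 for Syt1, 0.32 for Rbfox3, 0.16 for Snap25, -0.25 for Map2 and -0.72 for Tubb3. Marker values with the block are not given here. The part of neuronal RNA content in the members' values was not tested.

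Silencing itself was compared in a joint fit of 12 libraries without shNup153-1. Basal and silenced libraries come from separate tables, so state and table cannot be told apart. In shControl cultures 14 of 62 members tested (22.6%) were called lower in the silenced state, against 6.27% of the 20926 genes tested, and 2 (3.23%) higher, against 6.09%. The median log2 fold change was -0.44, beside -0.03 over all genes tested.

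Of the 14 lower members, 4 encode accessory subunits. Kcnab1 (chr3:65109384-65378223, plus strand), a beta subunit that speeds the inactivation of Kv1 pores, was at 45.5, 44.9, 37.4 and 52.1 CPM in basal and 16.9, 24.3 and 16.7 CPM in silenced shControl (edgeR log2 fold change -1.27, SE 0.18, adjusted p = 0.00163). Its relative Kcnab3 (chr11:69326258-69333042, plus strand) was at 17.6, 34.9, 24.6 and 23.1 CPM and 10.8, 6.58 and 10.9 CPM (edgeR log2 fold change -1.46, SE 0.24, adjusted p = 0.00401). Neither gene's groups overlapped. Kcnip1 (chr11:33629339-33993152, minus strand), a Kv4 partner, was at 57.3, 99.1, 54.2 and 76.7 CPM and 34.6, 32.3 and 29.2 CPM (edgeR log2 fold change -1.22, SE 0.20, adjusted p = 0.0034). Kcnmb2 (chr3:31902507-32200180, plus strand), a beta subunit that inactivates the large-conductance channel, was at 6.91, 6.70, 7.64 and 6.06 CPM and 2.09, 1.92 and 3.63 CPM (edgeR log2 fold change -1.47, SE 0.29, adjusted p = 0.00859). All silenced libraries of both genes were below all basal ones.

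Among pores, Kcnt2 was at 19.99, 19.1 and 17.7 CPM in silenced shControl (edgeR log2 fold change -0.95, SE 0.17, adjusted p = 0.00478) and Kcnq5 at 54.5, 52.3 and 48.8 CPM (edgeR log2 fold change -0.83, SE 0.15, adjusted p = 0.00527), both below every basal control given above. The other lower members were the M-current subunit Kcnq3 (log2 fold change -1.26), the Kcnh pore Kcnh2 (-0.75), the inward rectifiers Kcnj2 (-1.55), Kcnj3 (-0.62) and Kcnj4 (-0.76), Kcnk12 (-0.92), and Kcna7 and Kcnj5 from few counts. The groups of Kcnj4 overlapped. The 2 higher members were the accessory genes Kcnip3 (log2 fold change 1.23) and Kcnab2 (0.64). The call of Kcnip3 held in 16 of 18 alternative settings and that of Kcnab2 in 4 of 18, with log2 fold changes of 0.52 to 0.84 for Kcnab2. Kcnab2 lost it with DESeq2 size factors, with the length trend removed, with only the groups compared and in 11 of 12 fits that leave out a library. The count of 16 was 6 without silenced shControl replicate 1, 10 without silenced shControl replicate 3, and 8 when only the groups compared entered the fit.

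In shNup153-2 cultures the same comparison called 33 of 62 members (53.2%) lower, against 12.3% of all genes, and 1 (1.61%) higher, against 9.39%. Its 2 basal libraries are the same that gave the 14 members called higher with shNup153-2 at basal state. Of those 14, 12 are among the 33, so that rise and this fall are not independent of each other. The median log2 fold change was -0.97, beside 0.01 over all genes tested. Kcnq5 was at 201 and 165 CPM in basal and 60.9, 58.7 and 54.0 CPM in silenced shNup153-2 (edgeR log2 fold change -1.69, SE 0.17, adjusted p = 0.000317), and Kcnt2 at 71.0 and 64.4 CPM and 18.1, 20.005 and 19.5 CPM (edgeR log2 fold change -1.85, SE 0.19, adjusted p = 0.000321). Basal and silenced libraries of both genes were far apart, and in silenced cultures neither gene was called between shNup153-2 and shControl.

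Kcna2 (chr3:107101146-107115005, plus strand), an axonal Kv1 pore, was at 209 and 203 CPM in basal and 65.5, 79.5 and 61.4 CPM in silenced shNup153-2 (edgeR log2 fold change -1.61, SE 0.20, adjusted p = 0.000765). Kcnab1 was at 74.6 and 72.7 and 25.1, 31.1 and 22.4 CPM (edgeR log2 fold change -1.53, SE 0.20, adjusted p = 0.00103) and Kcnab3 at 23.8 and 24.9 and 6.99, 6.37 and 8.30 CPM (edgeR log2 fold change -1.79, SE 0.28, adjusted p = 0.00253). Kcnj3 fell from the basal values given above to 48.9, 47.0 and 38.7 CPM (edgeR log2 fold change -1.16, SE 0.19, adjusted p = 0.00279). In all 4 genes the states did not overlap.

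**Figure D4:**
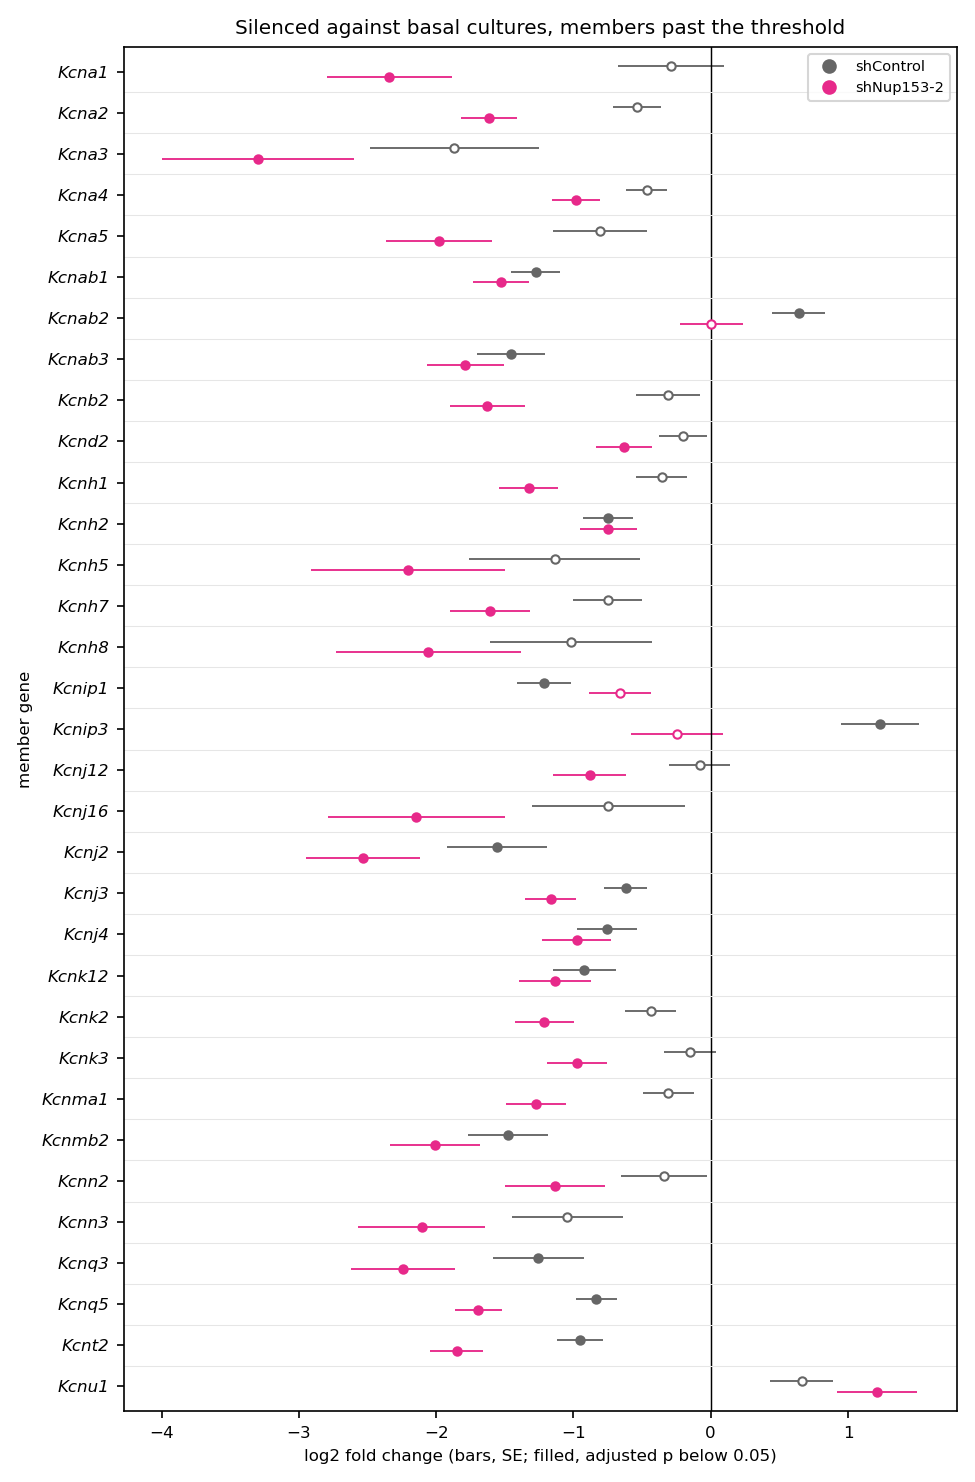
Log2 fold change of silenced against basal cultures (horizontal axis) for members called in either hairpin group and reaching a mean of 1 CPM in some group (vertical axis), with bars of 1 SE and filled points where the adjusted p is below 0.05; grey, shControl; magenta, shNup153-2. Most points lie left of 0, Kcnu1 lies right of 0 in both, and Kcnip3 is filled and to the right with shControl only.

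The other lower members with shNup153-2, as log2 fold changes, included the Kv1 pores Kcna1 (-2.34), Kcna3 (-3.30), Kcna4 (-0.98) and Kcna5 (-1.98), the delayed rectifier Kcnb2 (-1.63) and the A-type pore Kcnd2 (-0.63). The Kcnh pores were Kcnh1 (-1.33), Kcnh2 (-0.74), Kcnh5 (-2.20), Kcnh7 (-1.61) and Kcnh8 (-2.06). The calcium-activated genes were Kcnma1 (-1.27), Kcnmb2 (-2.01), Kcnn2 (-1.13) and Kcnn3 (-2.11), and the M-current gene was Kcnq3 (-2.24). The rectifiers were Kcnj2 (-2.53), Kcnj4 (-0.98), Kcnj12 (-0.88) and Kcnj16 (-2.14), and the leak channels Kcnk2 (-1.21), Kcnk3 (-0.97) and Kcnk12 (-1.14). Kcnj15, Kcnj5 and Kcna7 were called from few counts. Kcnu1 was the 1 higher member (1.21).

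The count of 34 was 18 without basal shNup153-2 replicate 1 and 17 without replicate 2. Without silenced shNup153-2 replicate 2 the log2 fold change was -3.12 for Kcnj16 and -2.71 for Kcnn3, and with the trend on gene length removed it was -1.04 for Kcnb2, -1.01 for Kcnh7 and -0.63 for Kcnma1. Both state comparisons come from 1 fit with a shared estimate of spread. They called 13 members lower in common, of 14 with shControl and 33 with shNup153-2. Interneuron markers summed to 680.4 to 1271 CPM in the basal and 387 to 497 CPM in the silenced libraries of these groups, with 4 of 6 called lower in shControl and 3 of 6 in shNup153-2. Astrocyte markers had 1 of 7 called lower in each, with median log2 fold changes of -0.79 in shControl and -1.28 in shNup153-2. They summed to 829.9 and 1128 CPM in basal and 176, 654 and 86.7 CPM in silenced shNup153-2, with no overlap. Silenced shControl held 223, 674 and 99.3 CPM, overlapping basal shControl. The 654 CPM belong to replicate 2, the library left out above for Kcnj16 and Kcnn3. Oligodendrocyte-lineage markers had 2 of 10 called higher in shControl, and 4 of 10 higher and 1 lower in shNup153-2. Of 5 endothelial and mural markers, 3 were called lower and 1 higher in shControl, and 2 lower and 1 higher in shNup153-2. The part of these cell types in the members' values was not tested.

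Whether the effect of shNup153-2 differed between the states was tested by the interaction term. With edgeR 0 of 62 members were called, against 0% of the 20926 genes tested, while 17 (27.4%) had an unadjusted p below 0.05, beside 11.4% of all genes. A negative value was found for 16 of them (25.8% of members, beside 5.88% of all genes), that is a lower log2 effect of the hairpin in silenced than in basal cultures. DESeq2 called 1, Kcna2 (log2 difference -1.06, adjusted p = 0.0348), limma-voom called 0, and without basal shControl replicate 1 edgeR called 1, Kcnb2 (log2 difference -1.62, adjusted p = 0.0407). With all 12 libraries in edgeR, Kcna2 had a log2 difference of -1.08 and an edgeR adjusted p of 0.197. Kcna1 had a log2 difference of -2.05 and Kcnip3 of -1.48, neither called. The median over members was -0.48, beside 0.01 over all genes tested. The larger number of calls at basal state is not shown to be a difference between the states.

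The 26 partner and regulator genes of these channels were counted in the same fits, with the share of all genes called in that direction beside each count. With shNup153-1, 2 of 23 tested were lower (7.05% of all genes): Abcc8, the sulfonylurea receptor that joins Kcnj11 (log2 fold change -0.73), and Snx27, which sorts G-protein-gated rectifiers (-1.10). With shNup153-2, 3 of 23 were higher (5.91% of all genes): Lrrc55, a gamma subunit of the large-conductance channel (1.18), Adam23, of the Kv1 complex (0.88), and Dlg4, the postsynaptic scaffold that binds Kv1 pores (0.93). Between hairpins Snx27 was the 1 call of 23 (log2 difference 1.35, 2.81% of all genes), and in silenced cultures the anchoring protein Akap5 was the 1 of 22 called (0.75, 1.61% of all genes). With the replicate block 5 of 22 were called higher, beside 11.7% of all genes. In silenced against basal shControl cultures 5 of 23 were lower (6.27% of all genes), among them Cntnap2, which clusters axonal Kv1 pores (-0.74), and Dpp10, a Kv4 partner (-0.96). In shNup153-2 cultures 7 were lower (12.3% of all genes), among them the Kv2 partner Amigo1 (-0.73), and 2 were higher (9.39%), Kcnrg (1.24) and Calm3 (0.98), as log2 fold changes.

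Few counts limit several members. Kcnk5 and Kcnq1 were too low to be tested in any comparison. Kcnj5, a cardiac G-protein-gated rectifier, had 35 counts in basal and 0 in silenced shControl libraries, at least 8.07-fold lower, with a floor of 3 counts over the group. In shNup153-2 the ratio of basal to silenced levels was 22.1 for Kcnj5 (95% counting interval 3.43 to 925), 27.6 for Kcnj15 (7.15 to 236) and 5.98 for Kcna7 (1.64 to 32.7). Kcne4, an accessory subunit, had 0 counts in basal shNup153-2 and 25 in basal shControl, at least 4.50-fold lower, and was not tested there. Such intervals and floors cover counting error only.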

How the data were processed

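The authors deposited raw counts per gene in 2 tables, 1 per state; reads were 100 bp pairs from poly(A) libraries per the labels' protocols, and counting used featureCounts 2.0.1 on mm10 per the submitters' processing notes. The sources used here give no aligner, annotation or strand setting. The shNup153-1 columns correlated with the other basal columns to line 16419 (r = 0.9745) and not below (r = 0.0871, or 0.9681 after moving them back), so lines to 16399 were used for that hairpin. A further 2 basal columns shared a name and were not used.

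Genes were tested with edgeR 4.0.16 in R 4.3.3 (filterByExpr with a minimum of 10 counts, TMM, quasi-likelihood F test, Benjamini-Hochberg adjustment over all genes tested); DESeq2 1.42.0 and limma 3.58.1 (limma-voom) were alternatives, and the fits were tested on simulated data. The shNup153-1 comparisons used all 3 basal groups, shNup153-2 at basal state its own group and shControl, silenced cultures their own table, and the state comparisons a joint fit. Replicates are separate litters per the labels' protocols. Same-numbered silenced libraries deviated together (r = 0.447, 0.679 and 0.754), so their blocked values are printed. Full values are given for up to 6 members with the smallest p in each comparison among those called, if their group mean reached 1 CPM on the higher side. Members and lists were chosen with earlier results of these data known. Some members entered every fit and count but are not reported here by name or shown in the figures.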

Additional observations from a re-analysis of the deposited data

Results flagged for a closer look

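In the 4 basal shControl libraries, 1 library stood far from the other 3 for 5 of the 61 members examined, where chance alone gives such a gap in about 1 of 20 groups. These were Kcna7 at 0.5 CPM in replicate 1, Kcnip2 at 85.55 CPM in replicate 4, Kcnk10 at 54.95 CPM in replicate 1, Kcnk3 at 12.87 CPM in replicate 2 and Kcnk9 at 180.7 CPM in replicate 2. In each case the library was the highest of the 4.

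The effects of the hairpins differed for 5 members by the edgeR test of the difference itself, shNup153-2 minus shNup153-1 on the log2 scale. The difference was 1.426 for Kcna4, 2.241 for Kcnh1, 1.348 for Kcnq5, 1.666 for Kcnt2 and -1.659 for Kcnu1.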

How the results depend on the processing

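Over 82 results for single genes (called members and Nup153) and all alternatives, 1131 of 1422 values kept direction and call, 291 lost the call and 0 reversed. Counts of members called moved by over 1.5 times as follows, with the share of all genes called in the same fit in parentheses. With DESeq2 there were 14 for shNup153-1 (21.7%), 24 for shNup153-2 (18.4%), 20 for the difference between hairpins (14.8%), 12 for silenced cultures (10.5%) and 1 for the interaction (1.61%). With the length trend removed there were 14 for shNup153-1 (18.6%), 10 for the difference (7.99%) and 4 for silenced cultures (4.31%). With a replicate block there were 0 for shNup153-1 and 0 for the difference, also with the length trend removed, and 21 in silenced cultures (21.9%), or 24 (24%) with the length trend removed. The basal numbers do not pair the libraries (r = -0.647 and -0.711 between shControl and shNup153-1, 0.263 and -0.016 between shControl and shNup153-2). Across numbers, r was 0.647 and 0.584 for shControl replicates 1 and 3 with shNup153-1 replicate 2. For shControl replicates 2 and 4 with shNup153-1 replicate 1 it was 0.711 and 0.456. Deviations in a group of 2 libraries mirror each other, so r with its other library has the reverse sign. The main basal fits hold no term for such shared deviations. With only the groups compared there were 5 for shNup153-1 (8.39%) and 8 for silencing in shControl (6.62%). Using all lines as deposited gave 14 for shNup153-1 (37.6%), the joint fit 23 for shNup153-2 (18.3%), and no filter on low counts 5 for silenced cultures (2.43%). Leaving out 1 library at a time gave 2 to 10 calls for shNup153-1, 0 to 18 for shNup153-2, 0 to 11 for the difference, 0 to 3 for silenced cultures, 6 to 24 for silencing in shControl, 17 to 37 in shNup153-2 and 0 to 1 for the interaction; a lone library is assumed to vary like the other groups. Groups of 2 libraries and few counts limit these results.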
